A study of Mus musculus with 4 samples.

Results

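Stromal cytokines that support blood stem and progenitor cells were examined in fibroblasts of mouse embryos, connective tissue cells that grow well in culture, without and with Med1. The members were 10 genes chosen by name, Kitl, Cxcl12, Angpt1, Il6, Il7, Il11, Lif, Csf1, Flt3l and Thpo, and every probe set annotated to them was taken. Of the 10 genes, 8 had a probe set of their own, among 12393 genes with one on the array, and they held 17 such probe sets. A further probe set was annotated to both Rpl13a and Flt3l and could not be assigned to either, and Thpo was not analysed here.

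The arrays fell into 2 groups of 2, labelled Med1-/- p53-/- and Med1+/+ p53-/-. Both groups lacked p53, the tumour suppressor that restrains growth in culture, so every comparison was made in cells without it. Per the labels, both genotypes were C57BL/6J fibroblasts of E10.0 embryos from 1 cross of a Med1+/- p53-/- male with a Med1+/- p53+/- female. The Med1 protein belongs to Mediator, which passes signals of transcription factors to RNA polymerase II. Nothing in the labels states whether arrays of 1 genotype stem from separate embryos or cultures. The p-values thus measure no more than the spread of these 4 samples, part or all of which may be technical, and anything else in which the embryos or cultures of the genotypes differed cannot be told apart from Med1 loss.

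Blood stem cells are kept alive, in place and quiescent by signals from neighbouring stromal cells. Kitl (stem cell factor) binds the receptor tyrosine kinase Kit, Cxcl12 attracts and holds cells that carry Cxcr4, and Angpt1 acts on the receptor Tek. Il6, Il11 and Lif share the signalling receptor chain gp130, encoded by Il6st, whereas Csf1 drives macrophage growth through Csf1r and Il7 supports lymphoid progenitors. Marrow stroma and fibroblast feeder layers are known sources of several of these factors, and the study's title places Med1 in stromal support of blood stem and progenitor cells. The question here was which of the cytokine transcripts differed between fibroblasts without and with Med1.

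On each array a probe set gave 1 intensity, and the deposited intensities did not share a scale. Their median was 36.1 and 51.4 on the Med1-/- arrays, against 76.25 and 106.65 on the Med1+/+ arrays. Intensities were therefore quantile normalized and are given as log2(value + 1.7), a scale that understates the change of dim genes and on which every difference is relative to the other genes of the array. A probe set was tested only where its mean over the 4 arrays reached the 40th percentile of all probe sets, a log2 value of 4.98. Med1 itself, on its brightest probe set, had deposited intensities of 25.4 and 40.2 on the Med1-/- arrays, against 664.6 and 885.6 on the Med1+/+ arrays, in the direction of the labels. Only 4 arrays were measured, which limits the precision of every value. Fewer cells of a type and less RNA per cell cannot be told apart in these bulk samples.

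The RefSeq promoter table (GRCm38.p6) held 8 of the members, all but Angpt1 and Il7. The 250 bases before the transcript start of the 5 members that could be tested are shown 5′ to 3′ on the gene's strand, because 3 of these genes fell together, 1 rose and 1 did neither. Capitals mark matches to the motifs searched.
Kitl: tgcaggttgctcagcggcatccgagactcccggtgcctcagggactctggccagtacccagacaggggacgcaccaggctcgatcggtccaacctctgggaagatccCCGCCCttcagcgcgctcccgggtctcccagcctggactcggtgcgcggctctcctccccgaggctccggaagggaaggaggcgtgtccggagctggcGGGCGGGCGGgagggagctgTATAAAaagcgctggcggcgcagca
Cxcl12: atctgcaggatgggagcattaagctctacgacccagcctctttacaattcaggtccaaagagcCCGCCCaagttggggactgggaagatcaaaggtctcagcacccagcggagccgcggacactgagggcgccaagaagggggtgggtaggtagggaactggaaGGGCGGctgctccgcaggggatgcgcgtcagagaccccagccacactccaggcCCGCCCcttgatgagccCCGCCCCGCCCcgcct
Il6: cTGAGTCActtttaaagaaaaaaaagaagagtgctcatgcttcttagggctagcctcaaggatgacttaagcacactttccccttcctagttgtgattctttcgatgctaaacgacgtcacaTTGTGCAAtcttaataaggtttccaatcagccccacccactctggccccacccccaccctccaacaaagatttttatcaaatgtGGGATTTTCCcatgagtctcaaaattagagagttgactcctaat
Lif: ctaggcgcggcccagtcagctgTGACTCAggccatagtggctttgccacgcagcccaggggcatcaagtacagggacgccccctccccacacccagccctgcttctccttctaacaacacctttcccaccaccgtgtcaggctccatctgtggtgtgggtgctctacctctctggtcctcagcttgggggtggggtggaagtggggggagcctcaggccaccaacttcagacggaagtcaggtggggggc
Csf1: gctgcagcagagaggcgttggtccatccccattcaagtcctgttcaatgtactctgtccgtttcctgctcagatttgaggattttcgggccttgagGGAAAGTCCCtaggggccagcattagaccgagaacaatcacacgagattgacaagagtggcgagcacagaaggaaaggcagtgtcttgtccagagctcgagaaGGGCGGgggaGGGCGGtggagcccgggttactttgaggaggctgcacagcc

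The windows lie at chr10:100015571-100015820 (plus strand) for Kitl, chr6:117168285-117168534 (plus) for Cxcl12, chr5:30012864-30013113 (plus) for Il6, chr11:4257318-4257567 (plus) for Lif and chr3:107760470-107760719 (minus) for Csf1. Each ends at the base before the start site that the table lists, which for Kitl lies 206 bases inside the gene's span because another transcript starts upstream. On both strands 7 motifs were searched, chosen with the sequences in view: a narrow 10-letter form of the NF-kB site, AP-1 (TGANTCA), C/EBP (TTGCNNAA), the GC box (GGGCGG), the TATA box (TATAAA), the nuclear receptor half-site (AGGTCA) and the HIF core (ACGTG). The Il6 window held an NF-kB match at -44 to -35, a C/EBP match at -128 to -121 on the reverse strand and an AP-1 match at -249 to -243. In the Csf1 window an NF-kB match on the reverse strand lay at -154 to -145, with 2 GC boxes nearer the start. Of all 32851 RefSeq promoter windows, 0.356% held that narrow NF-kB form, 6.75% the AP-1 letters and 9.56% the C/EBP letters.

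Kitl and Cxcl12 held none of those 3 motifs in these windows. Cxcl12 had 5 GC box matches and Kitl had 3, and in each gene 2 of them overlapped; 32.7% of all windows held at least 1. Kitl also had a TATA box at -25 to -20, which 12.4% of all windows shared. The Lif window held a single AP-1 match at -228 to -222. None of the 5 windows held the letters of the nuclear receptor half-site (14% of all windows) or of the HIF core (16.6%). These matches describe the letters alone, and the genes that fell, Kitl, Cxcl12 and Il6, shared no motif of the 7 among all 3 windows.

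**Figure D1:**
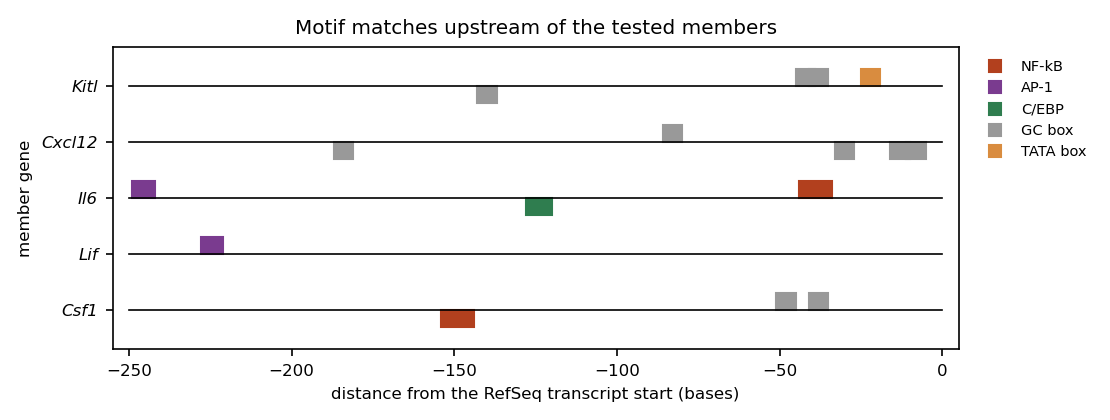
Positions of motif matches in the 250 bases before the RefSeq transcript start of the 5 tested members. The x axis gives the distance from the start in bases, boxes above a line are forward and boxes below it reverse matches, and colour gives the motif. NF-kB matches occur in the Il6 and Csf1 windows, and the GC boxes in those of Kitl, Cxcl12 and Csf1.

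Kitl and Cxcl12, the ligands of Kit and Cxcr4, and the gp130 cytokine gene Il6 fell in Med1-/- cells, Csf1 rose relative to the other genes of the arrays, and Lif was not called. Of the 5 member genes past the filter, 3 were called lower and 1 higher at an adjusted p under 0.05 (limma with Benjamini-Hochberg adjustment over 8923 features). In the same fit 36.2% of all features were called lower and 39.1% higher, so most expressed genes differed between these cells and a call by itself sets no member apart. The 5 tested members had a median log2 difference of -1.78, which is the value of Il6, against 0.09 for all features. Of the 5, 4 had genotypes that did not overlap, as did 88.2% of all features. Kitl, Cxcl12 and Il6 each lay lower by at least 1 log2, 3 of the 5 tested members, against 19.2% of all features. Il6 passed the filter only through its Med1+/+ level, so these counts and the median describe the tested members and stand for no others.

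Kitl encodes stem cell factor, which occurs as a membrane-bound and a soluble form, and lies on chromosome 10 (GRCm38.p6, 100015615 to 100100416). Its brightest probe set, 1415855_at, had deposited intensities of 73.3 and 126.6 on the Med1-/- arrays, against 605.1 and 1014.5 on the Med1+/+ arrays. After normalization the log2 values were 7.10 and 7.34 in Med1-/- cells, against 9.16 and 9.41 in Med1+/+ cells. Both Med1-/- arrays lay far below both Med1+/+ arrays. The means were 7.22 ± 0.171 and 9.29 ± 0.176 (SD, n = 2 each), a log2 difference of -2.06 (SE 0.147, 95% interval -2.42 to -1.71; adjusted p = 5.12e-05, limma), which is 4.18-fold lower in Med1-/- cells.

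The other Kitl probe sets ran the same way, with sizes that differed. Probe set 1448117_at differed by -1.82 (SE 0.21; adjusted p = 0.000422) and 1426152_a_at by -1.29 (SE 0.254; adjusted p = 0.00393), both from a limma fit of all 13576 probe sets past the filter, in which 35.3% were lower and 36.3% higher. Normalized log2 values averaged 5.02 ± 0.0283 in Med1-/- cells, against 6.84 ± 0.104 in Med1+/+ cells for 1448117_at, and 5.26 ± 0.262 in Med1-/- cells, against 6.56 ± 0.261 in Med1+/+ cells for 1426152_a_at (SD, n = 2 each). The genotypes separated on both. The fourth, 1415854_at, was below the filter, with deposited intensities of 5.8 and 13.6 in Med1-/- cells, against 29.5 and 19.6 in Med1+/+ cells, and its normalized values overlapped (log2 difference -0.51).

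Cxcl12 encodes the chemokine that retains blood stem cells in the marrow, and lies on chromosome 6 (117168535 to 117181368). Probe set 1448823_at had deposited intensities of 568.3 and 687.7 on the Med1-/- arrays, against 3214.7 and 4438.4 on the Med1+/+ arrays. It was brighter than 88.9% and 87% of all probe sets on the Med1-/- arrays and than 97% and 97.1% on the Med1+/+ arrays, so the transcript remained well measured without Med1. Normalized log2 values were 9.89 and 9.63 in Med1-/- cells, against 11.65 and 11.68 in Med1+/+ cells, and the groups did not overlap. The log2 difference was -1.91 (SE 0.116, 95% interval -2.18 to -1.63, n = 2 each; adjusted p = 3.97e-05, limma), 3.75-fold lower in Med1-/- cells. The second probe set, 1417574_at, had log2 values of 8.97 and 8.49 in Med1-/- cells, against 10.67 and 10.45 in Med1+/+ cells, a difference of -1.83 (SE 0.179; adjusted p = 0.000236, limma over all probe sets).

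Il6 encodes interleukin-6, an inflammatory cytokine that also acts on blood progenitors, and lies on chromosome 5 (30013114 to 30019975). Its only probe set, 1450297_at, was dim, with deposited intensities of 7.9 and 16.8 on the Med1-/- arrays, against 68.8 and 99.1 on the Med1+/+ arrays. Normalized log2 values were 3.89 and 4.53 in Med1-/- cells, both under the filter value, and 5.97 and 6.01 in Med1+/+ cells. The groups did not overlap, and the Med1-/- arrays spread more (SD 0.452) than the Med1+/+ arrays (SD 0.0229, n = 2 each). Il6 differed by -1.78 on the log2 scale (SE 0.338, 95% interval -2.59 to -0.98; adjusted p = 0.00264, limma), 3.44-fold lower in Med1-/- cells. Without either Med1+/+ array the mean of the 3 remaining arrays fell under the filter, and Il6 could not be tested.

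Lif, a gp130 cytokine gene on chromosome 11 (4257568 to 4272514), was not called. Probe set 1421207_at had deposited intensities of 41.2 and 41.4 on the Med1-/- arrays, against 75.7 and 103.4 on the Med1+/+ arrays, and normalized log2 values of 6.29 and 5.81 in Med1-/- cells, against 6.10 and 6.07 in Med1+/+ cells. The Med1+/+ values lay between the 2 Med1-/- values. The log2 difference was -0.04 (SE 0.237, 95% interval -0.60 to 0.53; adjusted p = 0.894, limma), an interval that leaves room for a change of either sign. Without Med1-/- replicate 2 the sign turned, at 0.21, again without a call. The second Lif probe set, 1450160_at, was below the filter, and its deposited intensities of 6.2 and 0.3 in Med1-/- cells, against 2.9 and 16.6 in Med1+/+ cells varied within each genotype.

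Csf1 encodes macrophage colony-stimulating factor, the main growth factor of macrophages, and lies on chromosome 3 (107741048 to 107760469). Its brightest probe set, 1460220_a_at, had deposited intensities of 1684.8 and 2304.6 on the Med1-/- arrays, against 1400.7 and 1937.9 on the Med1+/+ arrays. Before normalization the genotypes thus overlapped. Normalized log2 values were 11.35 and 11.23 in Med1-/- cells, against 10.42 and 10.38 in Med1+/+ cells, a difference of 0.89 (SE 0.0976, 95% interval 0.66 to 1.13, n = 2 each; adjusted p = 0.000214, limma), 1.86-fold higher in Med1-/- cells. The rise held relative to the other genes under quantile, median and 75th percentile scaling. It was not called in the values as deposited (0.26; adjusted p = 0.662, limma) or with the hybridisation controls set equal (0.24; adjusted p = 0.0555), and it turned to a fall of -0.60 with the Bacillus subtilis controls set equal (adjusted p = 0.00164).

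All 4 Csf1 probe sets were past the filter and were called higher after quantile normalization. Probe set 1448914_a_at differed by 1.27 (SE 0.133), 1425155_x_at by 1.19 (SE 0.172) and 1425154_a_at by 0.99 (SE 0.175), with adjusted p from 0.000299 to 0.00248 over the 4 (limma over all probe sets). The normalized log2 values of 1448914_a_at were 9.29 and 9.05 in Med1-/- cells, against 7.96 and 7.84 in Med1+/+ cells. On each of the 4 the Med1-/- arrays lay above both Med1+/+ arrays. All carry identifiers ending in _a_at or _x_at: the first kind matches several transcripts of a gene, and the second can also match transcripts of other genes.

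**Figure D2:**
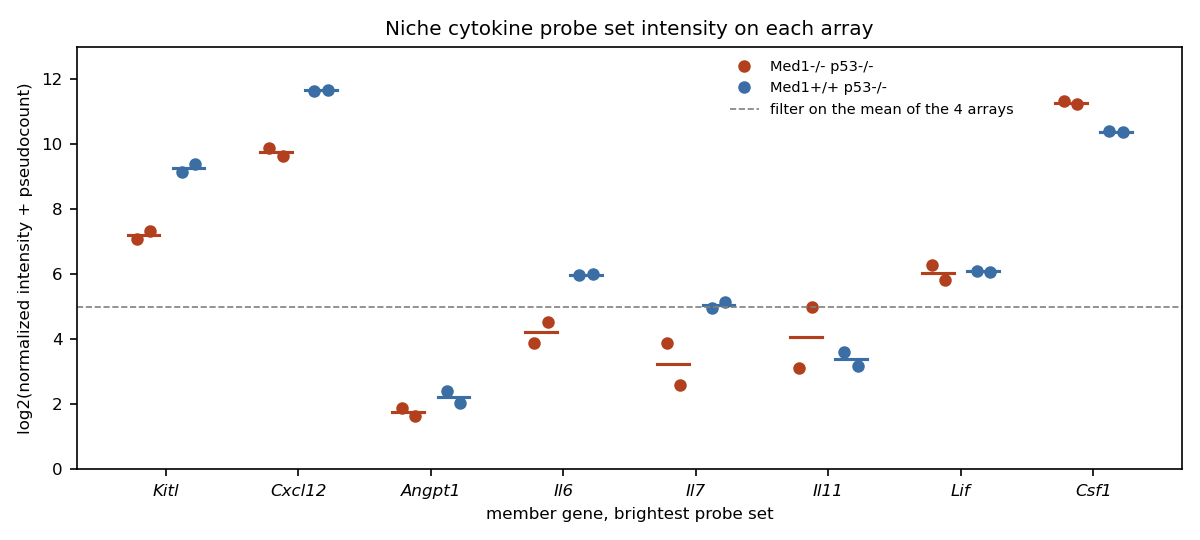
Quantile normalized intensity, as log2(value + 1.7), of the brightest probe set of each member on the 4 arrays, with Med1-/- left of Med1+/+ and short bars at the means. Kitl, Cxcl12 and Il6 are lower on both Med1-/- arrays, Csf1 is higher on both under this scaling but not with the Bacillus subtilis controls set equal, and Angpt1, Il7 and Il11 have means under the filter line at 4.98.

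**Figure D3:**
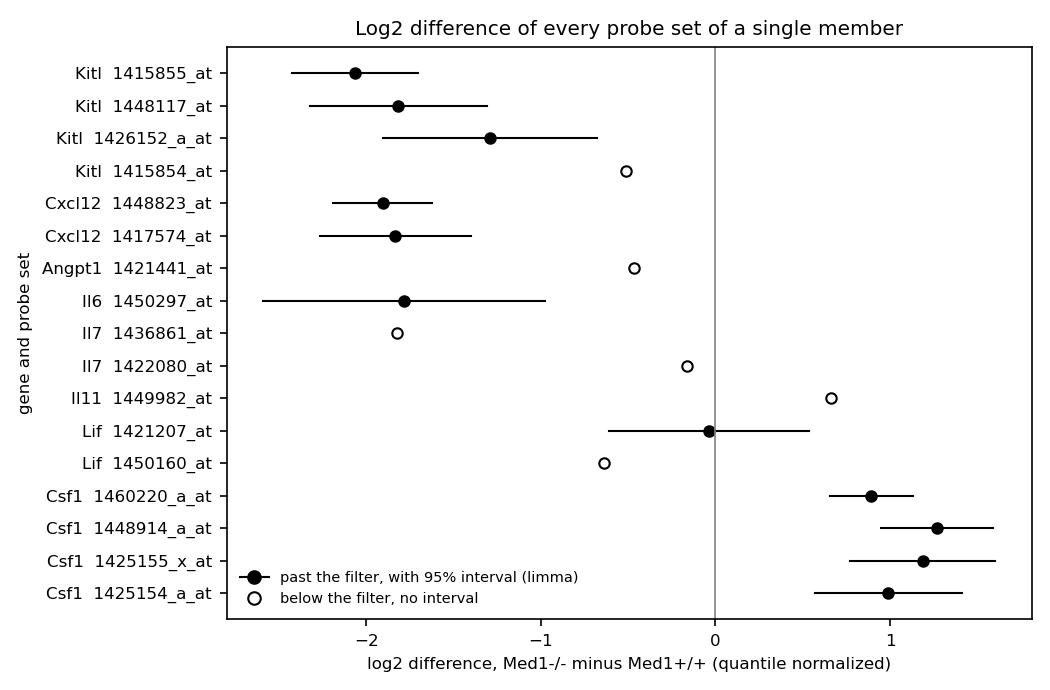
Log2 difference, Med1-/- minus Med1+/+, of each of the 17 probe sets annotated to a single member. Filled points are the 11 past the filter with 95% limma intervals, and open points are the 6 below it. The 3 filled Kitl, 2 Cxcl12 and 1 Il6 points lie below 0, the 4 Csf1 points above it under quantile scaling, and the Lif interval spans 0.

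Angpt1, Il7 and Il11 were below the filter and have no call. The Angpt1 probe set, 1421441_at, had deposited intensities of 1.3 on both Med1-/- arrays, against 3.9 and 3.5 on the Med1+/+ arrays, near the pseudocount, so the level of this Tek ligand gene could not be read in either genotype. Il7 had 7.9 and 3.7 on the Med1-/- arrays, against 33.1 and 52.8 on the Med1+/+ arrays for 1436861_at. That probe set was lower on both Med1-/- arrays, with a log2 difference of -1.82 (SD 0.917 in Med1-/- and 0.121 in Med1+/+ cells, n = 2 each), and without the filter it was called (adjusted p = 0.0404, limma). The other Il7 probe set, 1422080_at, did not separate the genotypes, at 4.2 and 0.2 in Med1-/- cells, against 1.1 and 8.3 in Med1+/+ cells.

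Il11, a further gp130 cytokine gene, had 4.4 and 23.5 on the Med1-/- arrays, against 11.2 and 10.8 on the Med1+/+ arrays. The 2 Med1-/- arrays disagreed by more than the genotypes did (SD 1.32 and 0.303, log2 difference 0.66). The probe set shared by Rpl13a, a ribosomal protein gene, and Flt3l had 7.6 and 14 in Med1-/- cells, against 14.7 and 13.5 in Med1+/+ cells, and its normalized values overlapped (log2 difference 0.36). No level of Flt3l alone can be taken from it.

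The zero point of these differences depended on how the arrays were brought to a common scale. The median log2 difference of all features was 0.09 after quantile normalization, 0.298 when the medians were matched and 0.113 when the 75th percentiles were. It was -0.757 in the values as deposited, -0.773 with the hybridisation controls set equal and -1.61 with the Bacillus subtilis controls set equal. Of all calls, 51.9% were higher after quantile normalization, against 6.45%, 18.1% and 1.79% in the last 3. Kitl, Cxcl12 and Il6 were called lower under each of the 6 scalings, with ranges of -3.86 to -1.94, -3.45 to -1.53 and -3.46 to -1.68. Lif was called lower with the hybridisation controls set equal (-1.08; adjusted p = 0.0043, limma) and with the Bacillus subtilis controls set equal (-1.90; adjusted p = 0.000219), and not called under the other 4. In each scaling Lif, Kitl, Cxcl12 and Il6 lay below the median of all features and Csf1 above it. Apart from quantile normalization, these scalings divide each array by a constant or leave it as deposited. Distances from that median therefore hardly change among them, and their agreement is not independent. The last 3 scalings move most features down, so a fall after quantile normalization mostly stays a fall there. That a gene fell under all 6 scalings, here and in the lists below, therefore adds little support.

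**Figure D4:**
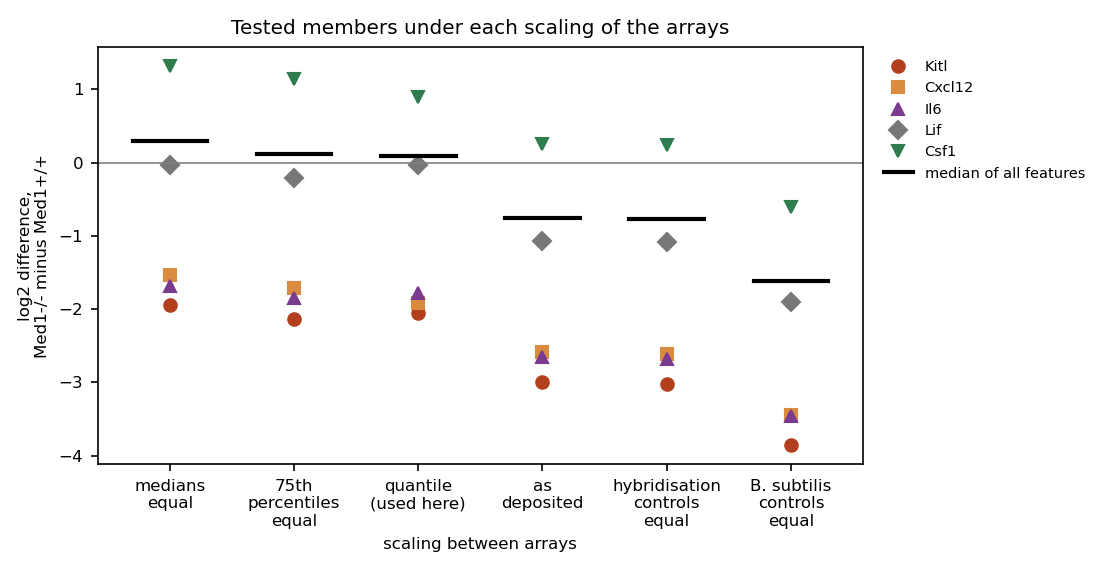
Log2 difference, Med1-/- minus Med1+/+, of the 5 tested members (symbols) under 6 scalings of the arrays, with the median of all features as black bars. Kitl, Cxcl12 and Il6 stay below 0 in all 6. Csf1 is at 0.89 after quantile normalization and at -0.60 with the Bacillus subtilis controls set equal, always above the black bar. All scalings but quantile normalization move the features of an array together, so distances from the bar hardly change among them.

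A ratio of 2 probe sets on the same array removes a factor common to that array. The ratios to Csf1 were taken on the deposited values with 1.7 added, which leaves part of such a factor in dim genes. The log2 ratio of Kitl to Csf1 was -4.49 and -4.17 on the Med1-/- arrays, against -1.21 and -0.933 on the Med1+/+ arrays, a difference of -3.26. The ratio of Cxcl12 to Csf1 was -1.56 and -1.74 on the Med1-/- arrays, against 1.20 and 1.19 on the Med1+/+ arrays, a difference of -2.85. The corresponding differences were -2.92 for Il6 and -1.33 for Lif, and the genotypes did not overlap for any of the 4 ratios. In normalized values 88.2% of all features did not overlap, and ratios of all features to Csf1 were not taken. As deposited, Csf1 differed by 0.258 and the median feature by -0.757, so that feature also lay lower relative to Csf1. Csf1 was the only tested member called higher after quantile normalization, so a lower ratio to it by itself sets no member apart. With nothing added, an alternative chosen after seeing the data, the differences were -3.28 for Kitl, -2.85 for Cxcl12, -3.10 for Il6 and -1.36 for Lif, and the genotypes again did not overlap. With 2 arrays against 2 an exact two-sided permutation test cannot go below p = 0.333, which each of the 4 ratios gave, before and after adjustment over them. On these 4 arrays the members thus changed unequally, which the permutation test could not assess. The ratios do not show which of them moved.

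Receptors of the members are the proteins through which fibroblasts could answer the same cytokines. Of 14 listed, 11 had a probe set and 5 were past the filter (median log2 difference -1.20, against 0.09 for all features). Of these 5, 3 fell, none rose and 2 were not called, beside 36.2% of all features lower and 39.1% higher. Ackr3, the scavenging receptor of Cxcl12, had deposited intensities of 18.3 and 35.4 on the Med1-/- arrays, against 311.8 and 343.3 on the Med1+/+ arrays and differed by -2.65 on the log2 scale (SE 0.229; adjusted p = 8.98e-05, limma). Lifr, the receptor chain bound by Lif, had 41.9 and 66.4 in Med1-/- cells, against 366.3 and 754.2 in Med1+/+ cells, a log2 difference of -2.31 (SE 0.204; adjusted p = 9.74e-05). Il6st, the shared gp130 chain, had 144.8 and 176.8 in Med1-/- cells against 613.4 and 769.4 in Med1+/+ cells, a difference of -1.20 (SE 0.133; adjusted p = 0.000233). The 3 were lower under all 6 scalings.

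Il6ra, the Il6-binding chain, differed by 0.11 (adjusted p = 0.693, limma), and Csf1r, the receptor of Csf1, by 0.62 (SE 0.244; adjusted p = 0.0527), neither called. With medians set equal, without the variance trend or with the replicate block, 1 receptor was called higher, and 4 and 5 were lower with the hybridisation and the Bacillus subtilis controls set equal. Kit, the receptor of Kitl, had deposited intensities of 1.6 and 1.9 on the Med1-/- arrays, against 65.4 and 102.2 on the Med1+/+ arrays. Its mean over the 4 arrays was below the filter although the genotypes lay far apart, and without the filter it was called lower (adjusted p = 0.000637, limma). The fitted log2 difference of -3.98 is inexact, because the Med1-/- values lay at the pseudocount. Without the filter Tie1, an endothelial relative of Tek, was called higher from near the lowest intensities (5.6 and 4.6 in Med1-/- cells, 0.8 and 0.4 in Med1+/+ cells; adjusted p = 0.0208). Tek, Cxcr4, Flt3 and Il7r had deposited intensities of at most 23.9 on any array and no call with or without the filter.

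Other cytokine and growth factor genes, not all of them ligands of the members' receptors, moved both ways. Of 20 listed, 7 were past the filter (median 0.461). Of these 3 were higher, 2 lower and 2 not called, beside 39.1% of all features higher and 36.2% lower. The counts rest on single arrays: without Med1+/+ replicate 1 they were 1 higher and 1 lower, and without Med1+/+ replicate 2 none was lower. Il33, an alarmin cytokine gene, fell, with a log2 difference of -2.49 (adjusted p = 0.00118, limma), with deposited intensities of 14.1 and 8.8 in Med1-/- cells, against 99.3 and 173.6 in Med1+/+ cells. The platelet-derived growth factor genes Pdgfa (1.15) and Pdgfb (0.69) and the gp130 ligand gene Ctf1 (0.70) rose after quantile normalization, and each was called lower with the Bacillus subtilis controls set equal. Ctf1 and Pdgfb were called higher in 2 of the 6 scalings and not without the filter (adjusted p = 0.0524 and 0.0767 in that order, limma). With 75th percentiles set equal the list had 1 gene higher, and none as deposited or with either set of controls equal.

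The JAK-STAT pathway carries the signals of gp130 and of other cytokine receptors. Of its 15 tested genes 8 rose, 4 fell and 3 were not called, beside 39.1% of all features higher and 36.2% lower. The list median was 0.464, and -1.27 with the Bacillus subtilis controls set equal. The kinase gene Pim1 rose by 2.19 (SE 0.117; adjusted p = 3.15e-05, limma), under all 6 scalings. Jak2 (log2 difference -1.43) and Jak1 (-0.96), kinases that gp130 uses, fell under all 6 scalings. Pias3, an inhibitor of Stat3, rose by 1.35 after quantile normalization and was called lower with the Bacillus subtilis controls set equal (-0.43). In the values as deposited and with the hybridisation controls set equal, only 1 gene of the list, Pim1, was called higher.

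Regulators known to act upstream of Il6, Lif, Il11 and Csf1 moved both ways. Of 18 tested genes of the NF-kB, C/EBP and AP-1 list, 11 rose, 4 fell and 3 were not called. Among all features 39.1% were called higher and 36.2% lower. The list median was 0.695, and -0.817 with the Bacillus subtilis controls set equal. With the filter at the 60th percentile 2 fell, since Il1r1 and Tlr2, like Il33, passed the filter only through their level in Med1+/+ cells. Il1r1, the receptor for interleukin-1, fell, with a log2 difference of -3.22 (SE 0.28; adjusted p = 9.23e-05, limma), with deposited intensities of 6.3 and 8.6 in Med1-/- cells, against 126.7 and 166.8 in Med1+/+ cells. Nfkbiz, an NF-kB cofactor that acts on the Il6 gene, had 60.7 and 106.7 in Med1-/- cells, against 430.9 and 723.7 in Med1+/+ cells and fell (log2 difference -1.81, SE 0.157; adjusted p = 9.1e-05). Tlr2, a sensor of bacterial lipoproteins, fell as well (-1.75; adjusted p = 0.0057). These 3 were lower under all 6 scalings. Zfp36, whose product destabilises cytokine mRNAs, rose by 1.53 after quantile normalization (adjusted p = 0.000134, limma). It was at -0.29 with the Bacillus subtilis controls set equal, without a call. None of the list was called higher in the values as deposited, and 6 were with the hybridisation controls set equal.

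The shedding list holds proteases that release membrane-bound ligands such as Kitl and Csf1, with their partners and inhibitors. Of 9 tested genes 3 rose (5 with medians or 75th percentiles set equal), 4 fell and 2 were not called, a share of calls near the 75.3% of all features (median 0.156; -1.31 with the Bacillus subtilis controls set equal). Adam10 (log2 difference -1.38) and Adam9 (-1.13) fell (adjusted p = 0.000526 and 7.24e-05 in that order, limma), both under all 6 scalings. Rhbdf1, a regulator of the sheddase Adam17, rose by 1.64 and the metalloprotease inhibitor gene Timp1 by 1.10 after quantile normalization. With the Bacillus subtilis controls set equal these 2 were at -0.01 and -0.27, not called. No gene of the list was called higher in the values as deposited, and 2 were with the hybridisation controls set equal.

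The adhesion list holds molecules that anchor blood progenitors to stroma. Of its 14 tested genes 8 fell, 1 rose and 5 were not called, beside 36.2% of all features lower and 39.1% higher. The list had a median of -0.659, against 0.09 for all features. Without Med1+/+ replicate 2 the number falling was 5. The calls were 4 higher and 7 lower under median scaling, 3 and 8 under 75th percentile scaling, 0 and 9 as deposited, 1 and 12 with the hybridisation controls and 0 and 14 with the Bacillus subtilis controls, and the replicate block gave 3 and 9. Postn, a matricellular protein gene, fell (log2 difference -3.84), as did Dlk1, a Notch ligand relative (-3.20), Alcam (-2.52) and Jam2, a junctional adhesion molecule gene (-1.08; adjusted p from 1.01e-05 to 0.0101, limma), each under all 6 scalings. Alcam had deposited intensities of 45.2 and 74.3 in Med1-/- cells, against 573.7 and 771 in Med1+/+ cells.

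Transcription factor genes of marrow stroma and mesenchyme gave 6 higher, 3 lower and 2 not called of 11 tested. Among all features 39.1% were called higher and 36.2% lower. The list median was 0.602, and -1.20 with the Bacillus subtilis controls set equal. Prrx1, a mesenchymal homeobox gene (log2 difference -2.89; adjusted p = 3.15e-05), and Hif1a, the hypoxia-inducible factor gene (-1.71; adjusted p = 3.47e-05, limma), fell under all 6 scalings. Ebf3, a factor of Cxcl12-rich marrow stroma, rose by 1.65 after quantile normalization (adjusted p = 0.000223), with deposited intensities of 85.5 and 115.9 in Med1-/- cells, against 56.8 and 69 in Med1+/+ cells, and Twist1 rose by 1.23. With the Bacillus subtilis controls set equal these 2 were at -0.19 and -0.47, Twist1 being called lower. None of the list was called higher in the values as deposited, and 2 were with the hybridisation controls set equal.

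**Figure D5:**
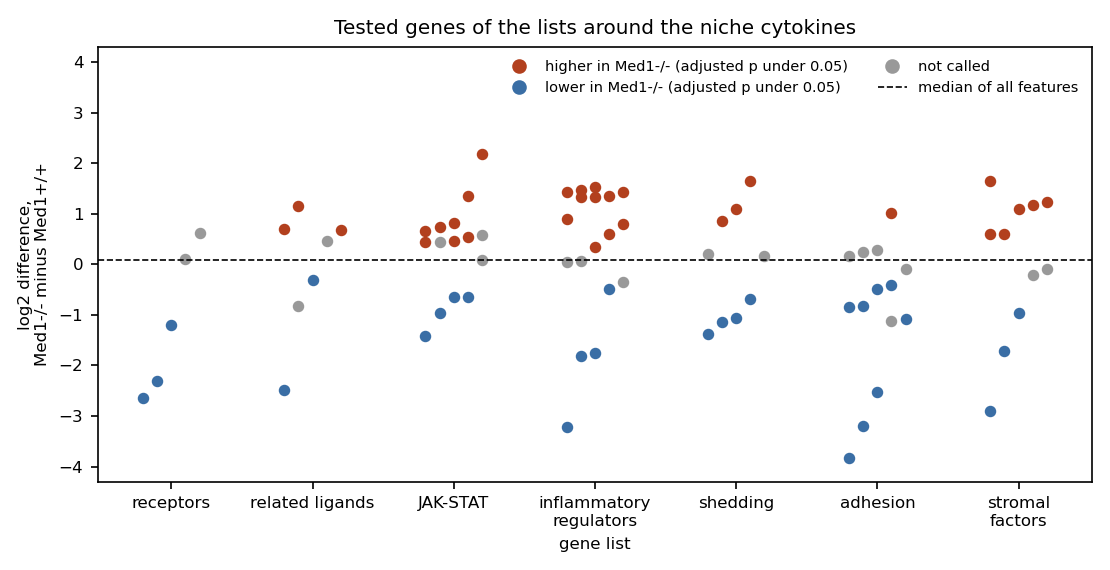
Log2 difference, Med1-/- minus Med1+/+, of each tested gene in 7 lists around the cytokines, after quantile normalization. Red points were called higher, blue lower and grey not called at an adjusted p under 0.05 (limma), and the dashed line is the median of all features at 0.09. Under this scaling no receptor was called higher (1 with medians set equal), and 8 of 14 adhesion genes were lower. Higher calls other than Pim1 were lost or turned in the values as deposited and with the Bacillus subtilis controls set equal.

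Markers of the cells themselves moved beside the cytokines. Of 10 tested fibroblast markers 4 were higher, 3 lower and 3 not called, beside 39.1% of all features higher and 36.2% lower. The summed normalized intensity of the 11 on the array was 43800 and 41700 in Med1-/- cells, against 40100 and 37450 in Med1+/+ cells. Vim and Col1a2, both on that list, had deposited intensities of at least 9712.9 on every array. Pdgfra (log2 difference -2.95, adjusted p = 0.000166, limma), S100a4 (-2.68) and Dcn (-1.99) fell, whereas Col1a1 rose by 1.98. Of 6 tested epithelial markers 5 were lower and 1 higher, with summed intensities of 2353 and 2713 in Med1-/- cells, against 5042 and 5198 in Med1+/+ cells for the 10 on the array. Dsg2, among the 5, passed the filter only through its Med1+/+ level (mean log2 values 4.06 in Med1-/- and 8.45 in Med1+/+ cells). Cdh1, the E-cadherin gene, had deposited intensities of 22.8 and 20 in Med1-/- cells, against 792.7 and 1206.4 in Med1+/+ cells. Krt18 had 74.7 and 71.6 in Med1-/- cells, against 2478 and 3569.6 in Med1+/+ cells (log2 difference -4.45). Dsp fell as well (-3.92), and Krt19 rose by 1.61 after quantile normalization. Epcam was near the lowest intensities, at 1.4 and 2.3 in Med1-/- cells, against 3.1 and 4.4 in Med1+/+ cells. With the Bacillus subtilis controls set equal the calls were 1 higher and 7 lower for the fibroblast list and 5 lower for the epithelial list. The part of these markers in the fall of Kitl, Cxcl12 and Il6 was not tested.

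Perivascular stroma markers had 4 higher, 2 lower and 2 not called of 8 tested, beside 39.1% of all features higher and 36.2% lower. Their sums were 3738 and 3607 in Med1-/- cells, against 4158 and 3792 in Med1+/+ cells, and Lepr was below the filter. With the Bacillus subtilis controls set equal 1 of these markers was higher and 5 lower. Of 3 tested macrophage markers, from cells that make Il6 and answer Csf1, Cd14 was called higher (0.55; adjusted p = 0.0167, limma) and 2 were not called; none was higher and 3 were lower with the Bacillus subtilis controls set equal. The macrophage markers summed to 370.2 and 375.3 in Med1-/- cells, against 280.9 and 261 in Med1+/+ cells over 13 genes, 10 of them below the filter, and the pan-leukocyte gene Ptprc was at 0.1 and 6.1 in Med1-/- cells, against 2.6 and 7.2 in Med1+/+ cells. Endothelial markers summed to 282 and 304.7 in Med1-/- cells, against 135.1 and 137.4 in Med1+/+ cells over 11 genes, of which Egfl7 rose after quantile normalization (no gene higher and 1 lower with the Bacillus subtilis controls) and Kdr was not called; Pecam1, Cdh5 and Vwf were at most 18 on any array. Of 2 osteoblast markers tested Cdh11 fell and Sp7 was not called, with sums of 537.8 and 488.8 in Med1-/- cells, against 1780 and 1827 in Med1+/+ cells over 7 genes. Erythroid and megakaryocyte markers summed to 185.4 and 195.2 in Med1-/- cells, against 163.4 and 137.3 in Med1+/+ cells over 7 genes, none called, and none of 7 hepatocyte markers passed the filter (57.48 and 78.75 in Med1-/- cells, 33.38 and 43 in Med1+/+ cells). All sums in this paragraph are of quantile normalized intensities. In the values as deposited the median log2 difference was -0.397 for the tested macrophage markers, against 0.62 after quantile normalization. For the endothelial markers the medians were 0.0814 against 1.07, and for the erythroid and megakaryocyte markers -0.663 against 0.35. Higher sums in Med1-/- cells therefore depend on the scaling.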

How the data were processed

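Total RNA of mouse embryonic fibroblasts was labelled by in vitro transcription (Affymetrix 3' IVT Express) and measured on 4 arrays, per the labels' protocols. The deposited table held 1 linear intensity per probe set and array; the authors' summary, background correction and scaling of probes are not given in the sources used here. Tests did not use the 64 control probe sets. Of the other 22626, 20380 were annotated to 1 gene, 691 to several and 1555 to none; none of the symbols needed updating through the RefSeq gene table of GRCm38.p6. Those with several genes or none kept their identifier as name.

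After quantile normalization 1.7, the table's 10th percentile, was added as a pseudocount before taking log2. The filter at the 40th percentile of mean intensity removed 9050 probe sets, and the brightest probe set stood for each gene. The genotypes were compared with limma (version 3.58.1, under R 4.3.3) by lmFit and eBayes with trend, two-sided, and adjusted over 8923 features, with 2 residual and 4.71 prior degrees of freedom. Arrays were grouped by the Med1 genotype in their titles, and the p53 genotype is that of the labels' genotype field.

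Members, lists and tests were chosen with earlier results of these data known. The rule named all members, Med1, the receptors on the array and, per list, up to 4 called genes with the largest change; of the marker lists fewer are named. Vim, Col1a2, Epcam, Krt19, Ptprc, Lepr, Kdr, Pecam1, Cdh5, Vwf and Sp7 were chosen after their values were seen. A comparison of the members' proteins listed at the outset was not made. In simulated data for this comparison with 8922 features, 34.5% of changes of 0.5 log2, 90.2% of 1 and 100% of 2 were recovered. There were 11 false calls among 136. Only 55, 61 and 51 of those features were changed, up or down at random, whereas 75.3% of features were called in the real data. These rates are for few changes of balanced sign and were not tested for changes as many as these. Alternatives varied the filter, scaling, pseudocount, probe set, variance model, weights, replicate block, arrays and thresholds. Promoter sequences are from RefSeq; figures were drawn with matplotlib 3.10.9.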

Additional observations from a re-analysis of the deposited data

How the results depend on the processing

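Of 22 alternatives, all fixed with earlier results known, Kitl and Cxcl12 kept their direction and call in 22 each (log2 differences -3.86 to -1.72 and -3.45 to -1.53; adjusted p up to 0.000542 and 0.000524, limma), and Il6 in the 19 that could test it (-3.46 to -1.24; adjusted p up to 0.0108). Il6 had no value with the filter at the 60th percentile or without either Med1+/+ array, and Lif none at the 60th percentile, because their means fell under the filter. Changes of filter, variance model, weights, replicate block or thresholds left the log2 difference of a tested member unchanged, so its direction was fixed. For Csf1, leaving out _a_at and _x_at identifiers kept the same probe set, because it has no other kind. Csf1 kept its call in 19 of 22 and Lif its direction without a call in 18 of 21; leaving out 1 array gave Lif -0.279 to 0.206, above 0 without Med1-/- replicate 2. With the Bacillus subtilis controls set equal Csf1 was at -0.604, and its probe sets 1460220_a_at, 1448914_a_at, 1425155_x_at and 1425154_a_at at -0.604, -0.46, -0.636 and -0.865; 1425154_a_at was also below 0 in the values as deposited (-0.0146) and with the hybridisation controls set equal (-0.0303). These scalings move all features of an array together, Csf1 among them. Why the controls differ, and which scaling is closer to the RNA content of the cells, was not tested. Member genes called higher numbered 0 in those 3 scalings and called lower 5 with the Bacillus subtilis controls. All features called higher numbered 265 as deposited, 1177 with the hybridisation controls and 142 with the Bacillus subtilis controls, against 3490; called lower were 5340 and 7784 with the 2 sets of controls, against 3232. A test against a log2 difference of 0.5 called 2166 higher and 2000 lower. Leaving out 1 array gave 3083 to 3347 higher and 2718 to 3175 lower, with 1 member higher and 2 to 3 lower. The replicate block (numbers shared only as labels; deviations of same-numbered arrays correlated at 0.297) called 3825 higher and 3500 lower and the same 1 and 3 members. With 4 arrays and no detection calls deposited, dim probe sets such as those of Angpt1, Il7 and Il11 limit what can be read.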

Other observations

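Some genes of the lists lay below the filter on the mean although their genotypes lay apart. The genes below were chosen after their values were seen, and their calls come from the alternative without a filter. Lama4, a laminin chain gene of blood vessel and stromal basement membranes, had deposited intensities of 1.6 and 4.6 on the Med1-/- arrays, against 116.4 and 168.5 on the Med1+/+ arrays (log2 difference -4.29; adjusted p = 0.000452, limma). The lymphocyte growth factor gene Il15 had 3.1 and 1.8 in Med1-/- cells, against 17.5 and 32.8 in Med1+/+ cells (-2.04; adjusted p = 0.0237). Tlr3, the sensor of double-stranded RNA, had 2.8 and 5.2 in Med1-/- cells, against 28.1 and 39.9 in Med1+/+ cells (-1.97; adjusted p = 0.0144).

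In the other direction Gli1, a target of hedgehog signalling, had 8.4 and 16 in Med1-/- cells, against 1.6 and 2.3 in Med1+/+ cells (log2 difference 2.49; adjusted p = 0.00771, limma without a filter). Csf3, the granulocyte colony-stimulating factor gene, had 18.8 and 18.4 in Med1-/- cells, against 6 and 17.5 in Med1+/+ cells (1.60; adjusted p = 0.0474). Sizes of all 5 are inexact because 1 genotype lay near the pseudocount or its arrays disagreed.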
